A study of Mus musculus with 2 samples.

Results

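The dystrophin complex genes described here are Dmd, Utrn, Dag1, Sgca, Sgcb, Sgcd, Dtna and Sspn, 8 among 21938 annotated protein-coding genes. They were taken by name, and no measured value enters the rule that lists them. The choice was made with earlier results of these data known. For each gene, the YY1 peak summits within 1000 bp of a transcript start, the summits inside the gene and the nearest summit were looked up in the peak list of a YY1 ChIP-seq experiment. In ChIP-seq an antibody pulls down a protein with the DNA it holds, this DNA is sequenced, and the summit of a peak is the base covered by the most fragments. MuSCs, the stem cells of skeletal muscle, were sorted as GFP+ cells from Ctrl mice (Pax7CreERT2/R26YFP; Yy1+/+; mdx), whose mdx allele came from the C57BL/10 ScSn DMDmdx strain, and cells of 20 mice were pooled into 1 YY1 library. Ctrl mice of the study received tamoxifen, which switches on the Pax7-driven Cre and with it the fluorescent marker, and their Yy1 gene is intact. The methods call the cells freshly isolated, while the labels describe a culture, and the age and sex of the pooled mice are not given in the sources used here. The background for peak calling came from 1 more library, not analysed here, which the labels name input and the methods name both input and IgG. As the YY1 library has no replicate, values below lack an error between mice and no test was made.

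Dystrophin links the actin cytoskeleton of the muscle fibre to dystroglycan in the sarcolemma, and dystroglycan binds laminin in the basement membrane. Sarcoglycans and sarcospan are membrane proteins that steady this link, and dystrobrevin and syntrophins are its cytoplasmic signalling partners. The mdx mouse carries a point mutation in Dmd that stops dystrophin from being made in its fibres, and utrophin, encoded by Utrn, is the closest relative of dystrophin and can take over part of its role. YY1 is a zinc finger transcription factor that binds near the start sites of many widely expressed genes, often at a word with the core ATGGC.

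YY1 summits lay at the promoters of 2 of the 8 genes, Dag1 and Sgcb, or 25%, where a promoter means 1000 bp either side of any start site. Of all protein-coding genes, 4119 (18.8%) had such a summit. The summit lay 213 bp downstream of the single start site of Sgcb and 319 bp downstream of the nearest of the 4 start sites of Dag1, in both cases inside the first intron. The same 2 genes were the ones with a summit inside the gene, against 13.7% of protein-coding genes. No member held a summit inside the gene and beyond 1000 bp of its starts, where the share over all protein-coding genes was 2.05%. The other 6 genes, Sgca, Utrn, Sspn, Dtna, Sgcd and Dmd in order of distance, had their nearest summit between 44.4 kb and 8.98 Mb from a start site. A member without a summit is one at which no peak passed the limit of the caller, a p-value of 0.0001, which at the most frequent background of 1.54 fragments takes 8 fragments.

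**Figure D1:**
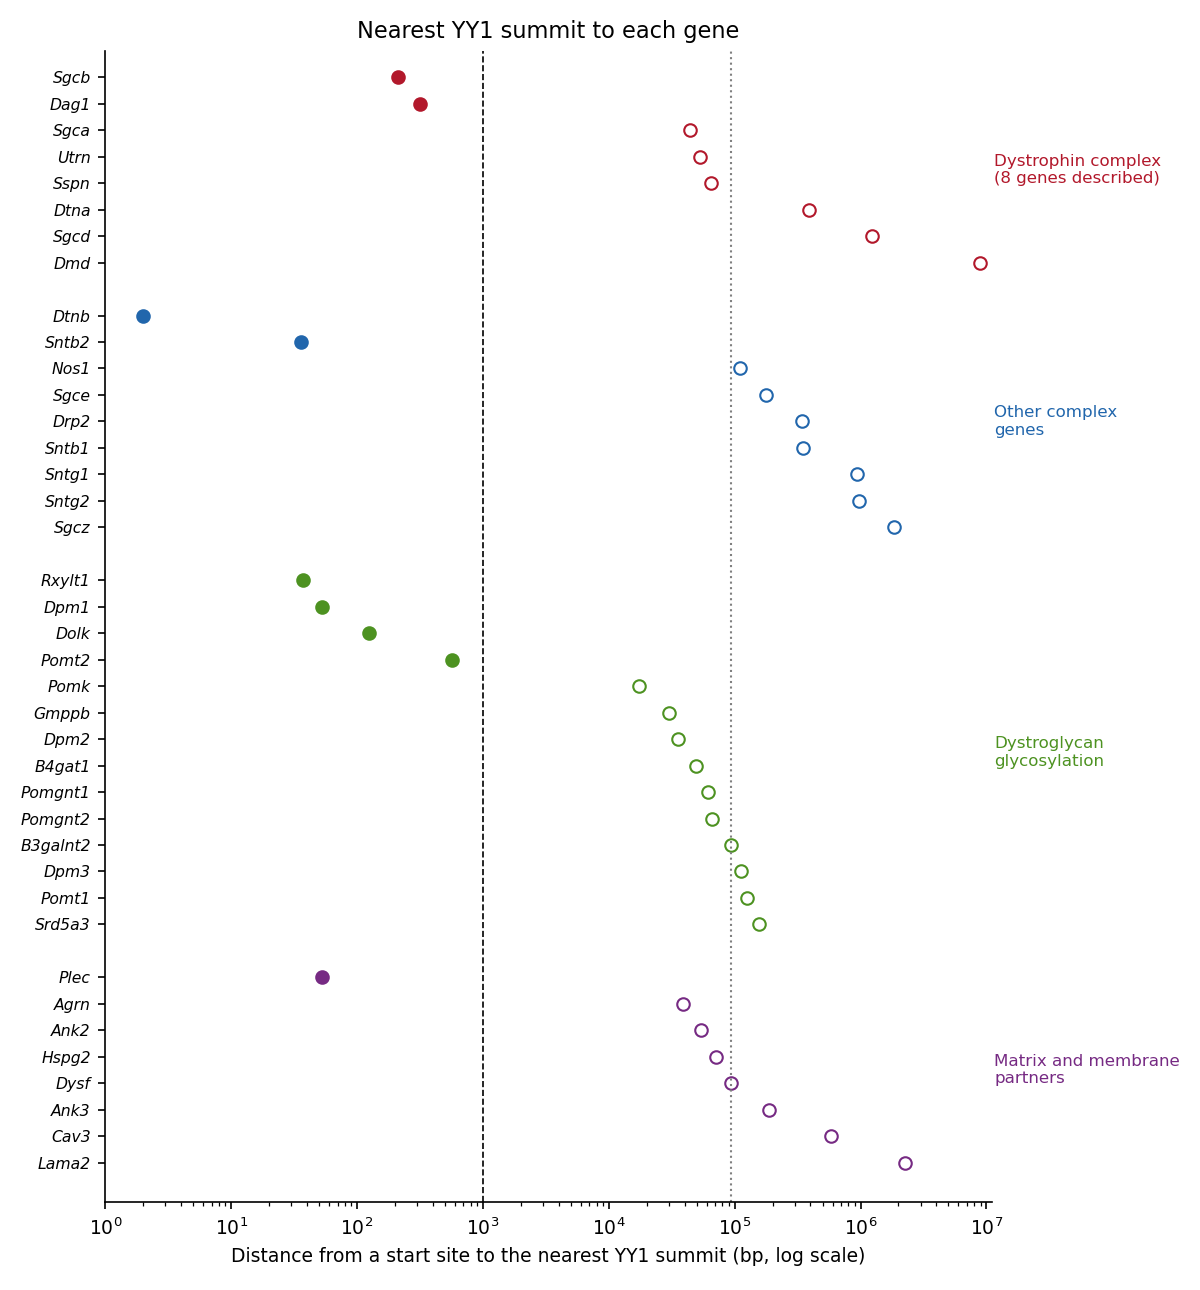
Distance in bp, on a log axis, from each gene's transcript starts to the nearest YY1 summit in the 1 library, for the 8 dystrophin complex genes (red) and related genes of 3 lists, of which some are not drawn. Filled points have a summit within 1000 bp (dashed line), and the dotted line is the median of all protein-coding genes, 93.7 kb. Sgcb and Dag1 are the 2 filled red points, and Dmd is the gene farthest to the right.

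Sgcb encodes beta-sarcoglycan, a transmembrane subunit of the sarcoglycan complex, and had the stronger of the 2 promoter peaks. The gene (ENSMUSG00000029156.11) covers 73632749 to 73647790 of chromosome 5 (GRCm38), about 15 kb, on the minus strand. Its peak spans chr5:73647450-73647778, 329 bp, with the summit at 73647577, so that it reaches from the first intron across exon 1 (73647675 to 73647790) almost to the start site. At the summit 20 fragments stood over a local background of 1.54, with a 95% Poisson interval of 12.2 to 30.9 that covers counting error only. The fold enrichment, the fragments plus 1 over the background plus 1, was 8.28, with a −log10 p-value of 16.4 and q = 2.75e-12 from the peak caller. It ranked 164 of the 4681 peaks by fold enrichment, and 3.53% of the peaks in promoters had a higher one. One other annotated gene starts within 1000 bp of this summit, the unconfirmed transcript Gm43799, whose start site is 14 bp from it, and no other protein-coding gene does.

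The part of the Sgcb peak inside the intron is printed because it holds the summit. It is read on the minus strand, the strand of the gene, at chr5:73647450-73647674, and the capitals mark the summit base with the 2 bases on each side.
Sgcb intron: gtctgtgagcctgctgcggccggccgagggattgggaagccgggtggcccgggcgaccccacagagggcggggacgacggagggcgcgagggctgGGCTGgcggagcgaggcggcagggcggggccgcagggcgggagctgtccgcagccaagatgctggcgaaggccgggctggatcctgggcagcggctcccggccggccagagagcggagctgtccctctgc

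These 225 bases are 76.9% G or C and hold 24 CpG. Over the whole Sgcb peak the GC content was also 76.9%, above the median of all peaks, 68.8%, and 11.8% of peaks were higher.

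The motif AANATGGC, searched on both strands, did not occur within 100 bp of the Sgcb summit, where 6.62% of all peaks hold it, but it occurred 1 time inside the peak, as in 13% of peaks. The match lies on the strand of the gene at chr5:73647709-73647716, with its centre 136 bp from the summit, and has the form AAGATGGC, which 7.11% of peaks hold. Its ATG, from 73647711 to 73647713, is the annotated start codon of Sgcb, 77 bp downstream of the start site. The 30 bases around the match follow because they show the word and the codon together, with the motif in capitals and read on the minus strand at chr5:73647698-73647727.
Sgcb motif: tgcggcgggccAAGATGGCggcagcggcgg

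Dag1 encodes dystroglycan, the precursor that is cut into the laminin-binding alpha subunit and the transmembrane beta subunit. The gene (ENSMUSG00000039952.15) covers 108204634 to 108263958 of chromosome 9, 59.3 kb on the minus strand, and has 4 annotated transcripts with 4 start sites. The peak spans chr9:108263383-108263597, 215 bp, the narrowest width in the list, which other peaks share. Its summit at 108263417 lies 319, 398, 501 and 541 bp downstream of these starts. It is in the first intron of all 4, past the untranslated first exons, and the start codon of Dag1 is further downstream. At the summit 12 fragments stood over a background of 1.98 (95% Poisson interval 6.2 to 21), a fold enrichment of 4.37 with a −log10 p-value of 6.74 and q = 0.000732. Its rank was 3230, and 72% of promoter peaks had a higher fold enrichment. The intervals of the fragments at Sgcb and Dag1 overlap. No other gene of any type starts within 1000 bp of the Dag1 summit.

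The part of the Dag1 peak that is intronic in all 4 transcripts, chr9:108263383-108263480, is printed on the minus strand, again with the summit base and 2 bases on each side in capitals, because it can be set beside the intron of Sgcb.
Dag1 intron: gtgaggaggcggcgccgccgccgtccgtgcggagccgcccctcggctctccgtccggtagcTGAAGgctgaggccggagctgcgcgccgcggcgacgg

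The 98 bases hold 18 CpG and are 79.6% G or C, and the whole peak is 77.2%. Neither AANATGGC nor its core ATGGC occurs anywhere in the Dag1 peak, whereas 49.0% of all peaks hold the core. The peaks of the 2 genes thus had in common a place downstream of the start, in the first intron, and a GC content above that of most peaks. Fold enrichment was 8.28 at Sgcb and 4.37 at Dag1, with overlapping intervals of the fragments and no test. Neither peak held AANATGGC within 100 bp of its summit, and the match farther out was in the wider peak, that of Sgcb.

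**Figure D2:**
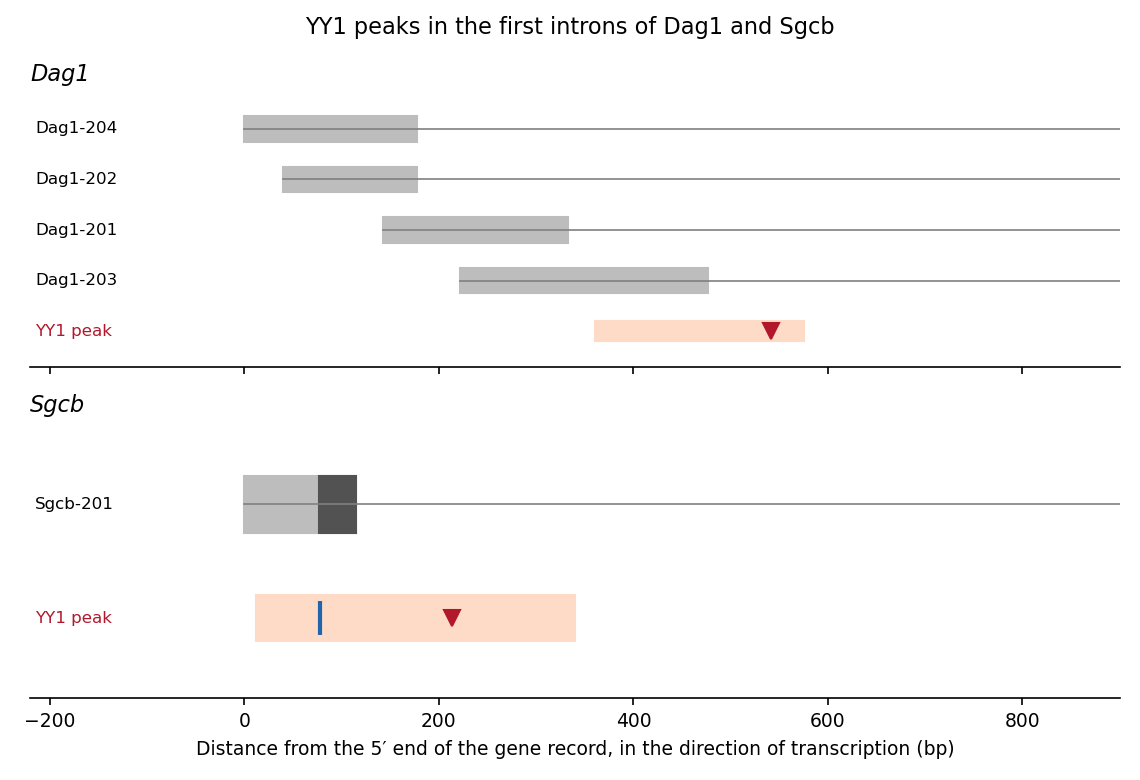
Position of the YY1 peaks at Dag1 and Sgcb in bp from the 5′ end of each gene, in the direction of transcription. Light grey boxes are untranslated and dark grey boxes coding parts of the first exons, the pale boxes are the peaks, triangles the summits, and the blue line the AAGATGGC that holds the start codon of Sgcb. Both summits lie past the first exons, 213 bp from the start of Sgcb and 541 bp from the most upstream start of Dag1.

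The remaining membrane subunits had no promoter summit. Sgca encodes alpha-sarcoglycan, the subunit found in striated muscle, and covers 94962791 to 94976327 of chromosome 11 (13.5 kb, minus strand). Its nearest summit was 44.4 kb downstream of a start and 33.7 kb beyond the 3′ end of the gene. That peak had 12 fragments and a fold enrichment of 5.13, and the nearest start site to it was that of Col1a1, a chain of type I collagen, at 7131 bp. Of all protein-coding genes, 63.3% had a nearest summit farther away than Sgca. The stretch without a summit around Sgca was 330 kb long and held the starts of 9 protein-coding genes.

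Sspn encodes sarcospan, a small protein that crosses the membrane several times beside the sarcoglycans, and covers 145931641 to 145965223 of chromosome 6 (33.6 kb, plus strand). Its 3 start sites were 65.3, 67.8 and 87.1 kb downstream of the nearest summit. The peak there had 11 fragments and a fold enrichment of 4.73, and its summit was 801 bp from a start of Bhlhe41, a transcription factor gene. The share of protein-coding genes with a more distant summit was 56.9%, so Sspn, like Sgca and Utrn, lay nearer to a summit than the median gene.

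Sgcd encodes delta-sarcoglycan and is the second longest of the members, at 1.09 Mb (46896253 to 47988969 of chromosome 11, minus strand). Neither of its 2 start sites was near a summit. The nearest summit lay upstream, 1.24 Mb from one start and 1.44 Mb from the other, in a peak of 16 fragments (fold enrichment 4.29) 180 bp from a start of Trim41, a ubiquitin ligase gene. A share of 8.25% of protein-coding genes had a more distant summit. With other start sites the distance of Sgcd was shorter, 828204 bp with all GENCODE transcripts and 828 kb with RefSeq. Sgcd lay in a stretch of 4.30 Mb without a summit, which ranked 91 by length of the 4660 stretches between neighbouring summits and held the starts of 23 protein-coding genes. Of the 27 protein-coding genes with a start within 1 Mb of Sgcd, 1 had a promoter summit.

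Among the cytoplasmic members, Dmd stood farthest from a summit. Dmd encodes dystrophin and covers 82948870 to 85206141 of the X chromosome, 2.26 Mb on the plus strand. No summit fell inside it or within 1.5 Mb of its 5′ end. The upstream start of the basic annotation (82948903) was 8.98 Mb from the nearest summit, and the internal start (85048413), which gives short forms of dystrophin, was 9.07 Mb from one. The nearer of these peaks had 10 fragments and a fold enrichment of 4.34, 991 bp from a start of Hcfc1, the gene of a chromatin cofactor of the cell cycle. Of all protein-coding genes, 0.643% lay farther from a summit. The stretch around Dmd without a summit ran from 73967348 to 94122921, which at 20.2 Mb was the fourth longest of 4660, held the starts of 85 protein-coding genes and had no unknown bases in the reference.

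Promoter summits were few on the X chromosome as a whole. Of the 948 protein-coding genes of that chromosome, 22 (2.32%) had a promoter summit, against 19.7% of those outside the X and Y chromosomes. The list holds 34 peaks on the X chromosome, with a median fold enrichment of 4.04, where the median of the 4638 peaks outside X and Y was 5.11, and the median local background was 1.98 fragments in both. The median gene of the X chromosome lay 1.45 Mb from a summit, and 3.16% of its protein-coding genes lay farther than Dmd. The part of the chromosome in the absence of a peak at Dmd was not tested, and since the sex of the pooled mice is not given, the number of X copies in the library is unknown.

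Utrn encodes utrophin and covers 12382188 to 12869365 of chromosome 10 (487 kb, minus strand). Its 4 start sites were 53.3, 60.9, 308 and 374 kb from the nearest summit, which lies upstream of all of them. The peak there was the second strongest of the 8 nearest peaks, at a fold enrichment of 7.04 (21 fragments over 2.12), and it lay 426 bp from the start of the long non-coding RNA B230208H11Rik. Of all protein-coding genes, 60.5% had a summit farther away. The gene and its 3′ flank lay in a stretch of 1.43 Mb without a summit, in which no other protein-coding gene starts.

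Dtna encodes alpha-dystrobrevin, a relative of dystrophin that binds it and the syntrophins, and covers 23415135 to 23659715 of chromosome 18 (245 kb, plus strand). Its 4 start sites lie close together and were all 388 kb upstream of the nearest summit, which is 144 kb beyond the 3′ end of the gene and 67 bp from a start of Mapre2, the gene of a microtubule-binding protein. That peak had 16 fragments and a fold enrichment of 6.30. A more distant summit was seen for 23.6% of protein-coding genes, and the stretch without a summit was 2.80 Mb. The distance depends on the annotation, and was 152349 bp from the nearest start of all GENCODE transcripts and 269 kb from that of RefSeq.

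**Figure D3:**
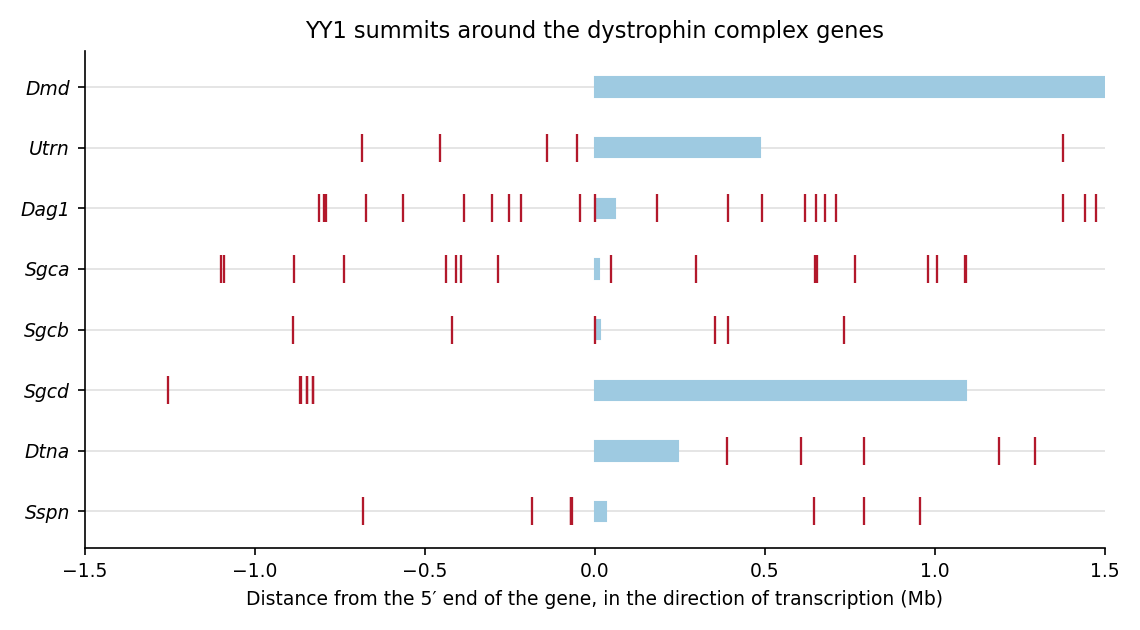
YY1 summits (red lines) within 1.5 Mb of the 5′ end of each dystrophin complex gene, in the direction of transcription, with the gene as a blue bar. Dag1 and Sgcb have a summit at their start, Dmd has 0 summits in the window, Dag1 has 21, and the bodies of Utrn, Sgcd and Dtna hold none.

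The 3 longest members, Dmd, Sgcd and Utrn, make up 3.84 of the 4.2 Mb that the 8 genes cover, and none of them held a summit. Pooled over the members there were 0.476 summits per Mb of gene, against 3.07 per Mb over all protein-coding genes. When summits within 1000 bp of a gene's own starts were left out, it was 0 for the members and 0.529 per Mb over all protein-coding genes. Of the 230 protein-coding genes of 500 kb or more, to which Dmd and Sgcd belong, 7.83% had a promoter summit, 11.3% a summit inside the gene and 6.96% one inside and beyond 1000 bp of their starts. The number of starts also differed between members, and 15.8% of protein-coding genes with 1 start had a promoter summit against 21.7% of those with more. Over the 8 members the median distance to the nearest summit was 59.3 kb, and over all protein-coding genes it was 93.7 kb, with quartiles of 15.6 and 354 kb.

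Promoter summits were also counted around the members, to be read against the 18.8% of all protein-coding genes. Within 1 Mb of Dag1 lie the starts of 82 other protein-coding genes, of which 16 had a promoter summit. Around Sgcb 5 of 18 did, around Sgca 10 of 45, around Sspn 7 of 19, around Dtna 5 of 12 and around Utrn 3 of 10. Around Sgcd it was 1 of 27. Around Dmd it was 0 of 7, on the chromosome where the share was 2.32%.

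RefSeq lists more start sites than the basic annotation for all members except Sgcb and Sspn, where the numbers are equal, and the 2 bound genes were the same. All 5 RefSeq starts of Dag1 and the 1 of Sgcb had a summit within 1000 bp, the latter at 160 bp. None of the 11 RefSeq starts of Dmd did, which lay 8.85 Mb or more from a summit, and none of the 14 of Utrn, the 17 of Dtna or the 3 each of Sgcd, Sgca and Sspn.

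The CpG content of the promoters was compared because the rule that chose the genes did not use it. The CpG ratio is the number of CpG dinucleotides over the number that the C and G content would give by chance, here within 250 bp of the 5′ end of the gene. It was 1.04 at Dag1, higher than at 96.5% of protein-coding genes, 0.931 at Utrn, 0.833 at Sgcb and 0.81 at Sgcd. The other members were lower, with 0.289 at Dtna, 0.179 at Dmd, 0.173 at Sgca and 0.153 at Sspn. Over all protein-coding genes the share with a promoter summit was 2.53% where the ratio was under 0.25 and 57.6% where it was 1 or more, and of the 7634 genes at 0.75 or more it was 39.8%. Both bound members, Dag1 and Sgcb, were among the 4 members at or above 0.75, and Utrn and Sgcd were CpG-rich without a summit. At Sgcd the value depends on the start used, since the 5′ end of the gene is not a start of the basic annotation, and with the most CpG-rich basic start it was 0.42. By the same rule Sspn moved from 0.153 to 0.452 and Dmd, at its internal start, to 0.548. Utrn kept 0.931, at a 5′ end with 74.5% G or C within 250 bp. Its RefSeq promoter, at another start (chr10:12861686-12861985), was 46.0% G or C.

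**Figure D4:**
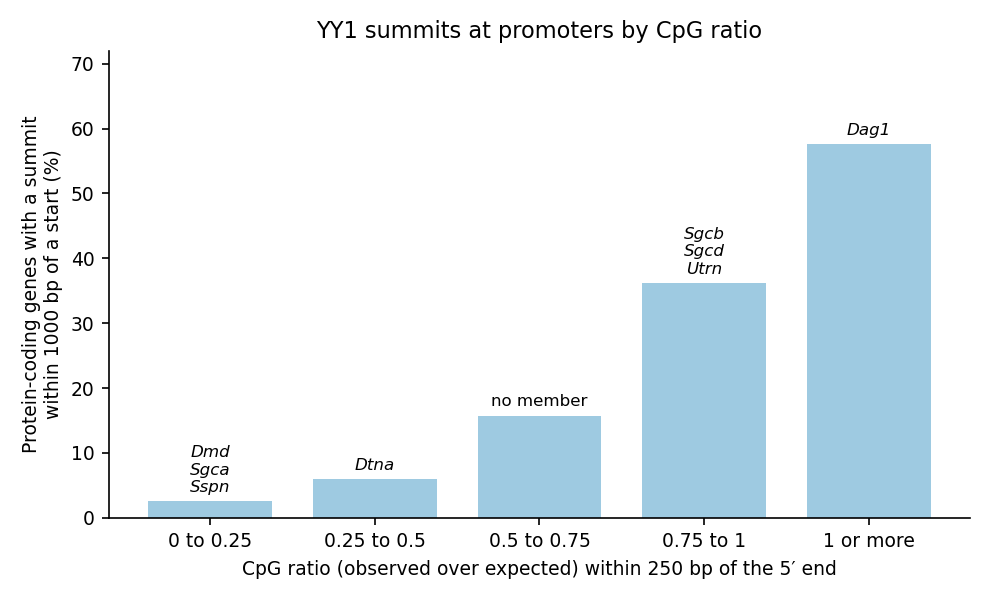
Percent of protein-coding genes with a YY1 summit within 1000 bp of a start, by CpG ratio within 250 bp of the 5′ end, with the dystrophin complex genes named above their bin. The bars start at 0 and rise from 2.53% to 57.6%, and the bound genes Dag1 and Sgcb are in the last 2 bins.

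RefSeq promoter sequences, from 250 bases before to 50 after a start (GRCm38.p6), were found for 7 of the members, all except Dtna. Among their 10 promoters the motif AANATGGC occurred 1 time, at Sgcb, where it is the match described above, and over 32851 promoters the share was 6.05%. The core ATGGC, which AANATGGC contains, occurred in promoters of Sgcb, Sspn and Dmd, against 40.5% of all promoters.

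After the match at the start codon of Sgcb had been seen, start codons inside AANATGGC were looked for in all protein-coding genes. Of 21623 genes with an annotated start codon, 959 (4.44%) have 1 in this word, and 29.1% of these had a promoter summit, against 18.5% of the others. In 160 genes that word lay inside a peak. Of the members, Utrn is the only other one, with AAGATGGC around the start codon that lies 89 bp from a start site, and this site was 61.0 kb from the nearest summit. Sntb1, the gene of beta-1-syntrophin, has AAGATGGC around a start codon 131 bp from a start site, and Ank2, an ankyrin that binds dystrophin, has AAAATGGC at 539 bp, with the nearest summits 349 and 330 kb from the codons. The sequences around these 3 codons are shown to be set beside that of Sgcb, each on the minus strand, with the motif in capitals, at chr10:12861631-12861660, chr15:55906576-55906605 and chr3:127161792-127161821.
Utrn start codon: gaaactcattcAAGATGGCcaagtatgggg
Sntb1 start codon: agaatgctggaAAGATGGCggtagcggcag
Ank2 start codon: tttcgtctgccAAAATGGCtcacgctgctg

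The form AAGATGGC was shared by Sgcb, Utrn and Sntb1, and of the 4 genes shown Sgcb was the one with the word inside a peak.

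For the other genes of the pathway, 3 lists with 37 genes were examined, of which 11 (29.7%) had a promoter summit, with 18.8% over all protein-coding genes. Among 11 further complex genes these were 2 (18.2%), Dtnb, which encodes beta-dystrobrevin, and Sntb2, which encodes beta-2-syntrophin. Their summits lay 2 bp and 36 bp from a start, in peaks of 12 and 14 fragments with a fold enrichment of 5.13 and 5.56. Sgce and Sgcz, the epsilon- and zeta-sarcoglycan genes, had none, with summits 177 kb and 1.85 Mb away, nor did Nos1, the gene of the neuronal nitric oxide synthase that the complex anchors, at 110 kb. The median distance over the 11 was 177 kb.

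Genes that glycosylate dystroglycan, the product of Dag1, had a promoter summit in 8 of 18 cases (44.4%), and their median distance was 23.7 kb. The count was 4 when a fold enrichment of at least 5 was required, where the share over all protein-coding genes was 11.1%, and 6 with a q-value under 0.01, where it was 17.4%. Dolk and Dpm1 supply the dolichol-linked mannose, and Pomt2 encodes a subunit of the enzyme that places the first mannose on dystroglycan. Rxylt1 adds a xylose to the chain that binds laminin. At these 4 genes the summits lay between 37 bp (Rxylt1) and 572 bp (Pomt2) from a start, and the fold enrichment was 3.28 at Dpm1, 4.82 at Rxylt1, 5.04 at Pomt2 and 5.13 at Dolk. All 4 peaks were below that of Sgcb, and that of Dpm1, with q = 0.025, was also below that of Dag1. At 3 of the 4 the same peak lay within 1000 bp of a start of another protein-coding gene, namely Gstz1 at Pomt2, Gm20716 and Mocs3 at Dpm1 and Nup188 at Dolk, so that these peaks cannot be assigned to 1 gene. The list was written with earlier results of these data known, and its share is a description.

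Of the 8 matrix and membrane partners, 1 (12.5%) had a promoter summit, the cytolinker gene Plec, with 2 peaks at 53 bp upstream and 327 bp downstream of starts and 11 and 12 fragments. With 1 start per gene, the 5′ end of the gene record, the count was 0. Lama2, the gene of the laminin chain to which dystroglycan binds in muscle, had its nearest summit 2.26 Mb away, and Dysf and Cav3, both linked to muscular dystrophy, had theirs at 94.1 and 587 kb.

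**Figure D5:**
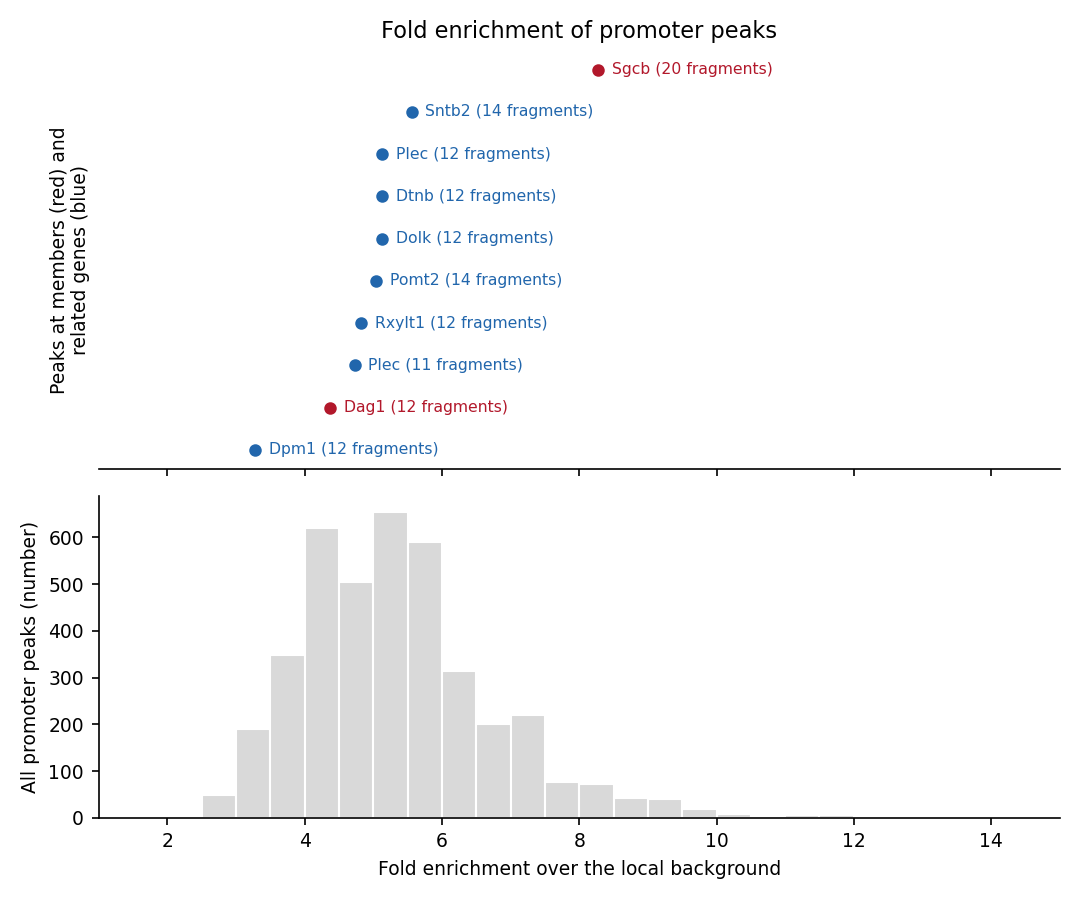
Upper panel: fold enrichment over the local background of promoter peaks at the members (red) and at related genes (blue, some not drawn), with the fragments at the summit. Lower panel: number of all promoter peaks per step of fold enrichment. Sgcb, at 8.28, is above the related genes drawn, and Dag1, at 4.37, lies between Dpm1 and Plec.

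Among the peaks of the related genes, that of Dolk was the 1 with AANATGGC within 100 bp of its summit, and it held the word 2 times, 18 and 141 bp from the summit, on opposite strands. Dolk lies on the minus strand, and Nup188 starts 31 bp from this summit. The 30 bases around each match, both read on the minus strand with the motif or its reverse complement in capitals, are at chr2:30286425-30286454 and chr2:30286302-30286331. They are printed as the only matches besides that of Sgcb in these peaks.
Dolk match near the summit: cagcggcagccGCCATCTTcgcgcgcgcgg
Dolk match farther away: atggggctgtcAAGATGGCgctgccctggt

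By the most frequent background the library held 13357888 fragments, and the 4681 peaks had 8 to 394 fragments at their summits with a median of 14. The Dag1 peak, with 12 fragments, was below that median, and the Sgcb peak, with 20, above it.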

How the data were processed

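Reads were trimmed, filtered and aligned by the authors with Bowtie2 to mm10, whose sequence is that of GRCm38. From the non-redundant reads MACS2 called peaks at p-values up to 0.0001. Versions are not given in the sources used here. In the deposited list each peak has the fold enrichment, a ratio of fragments at the summit to the local background, together with its p-value and q-value as −log10. The deposited integer score was not used, and the summit position was taken from the deposited offset. Intervals and p-values cover counting error within 1 pair of libraries.

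Fragments and background were recovered from the fold enrichment and p-value, and a whole number fitted all 4681 peaks within 0.001 of −log10 p. The depth, 13357888 fragments, follows from the most frequent background, 1.54 fragments, and the narrowest peak, 215 bp, together with an assumed genome size. A deeper library would let weaker sites pass the same limit. A peak list holds no expression values, so the labelled cell type was not checked against markers. Summits were placed against the GENCODE M21 basic annotation, all 45 genes were matched by symbol (1 by its older symbol), and motifs were searched on both strands. Promoter sequences came from RefSeq and other sequences from the GRCm38 reference.

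The members and lists were chosen with earlier results of these data known. The text names all members, genes of the lists with a promoter summit or a summit inside the gene, genes sharing a member's promoter summit, and the gene nearest to a member's nearest summit. Some genes of the lists enter the counts but are not reported here by name. Any further gene was picked once its values were known. Alternatives were stricter peak limits, other promoter windows and start sites, placement by overlap, other motif forms and windows and other windows for CpG. Placement, fragment recovery and motif search were tested on simulated data. Software comprised samtools 1.23.1 and Python 3.11.15 with pysam 0.24.0, scipy 1.17.1, pandas 2.3.3, numpy 2.4.6 and matplotlib 3.10.9.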

Additional observations from a re-analysis of the deposited data

How the results depend on the processing

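No paired analysis was possible because 1 YY1 library was compared with 1 background library and no result comes from a test. For the same reason no replicate could be left out. Dag1 and Sgcb were the 2 members with a promoter summit under 10 of 12 alternatives, including the annotations of all GENCODE transcripts and of RefSeq, which were added after seeing the data. When peaks needed a fold enrichment of at least 5, the count was 1 (Sgcb), and the count of members with a summit inside the gene was also 1. Under the same limit 2445 protein-coding genes (11.1%) and 7 of the 37 list genes had a promoter summit, and the median distance of the members was 126 kb. With a window of 1000 bp upstream to 100 bp downstream of a start, 0 members had a promoter summit, against 3201 (14.6%) of protein-coding genes, since both summits lie farther downstream. Leaving out summits within 1000 bp of a gene's own starts, also added after seeing the data, gave 0 members with a summit inside. The motif AANATGGC, at 0 of the 2 member peaks within 100 bp of the summit, was found at 1 (Sgcb) within 250 bp and at 1 in the whole peak, the latter added after seeing the data. For single genes, the limit on fold enrichment moved the nearest summit of Dag1 to 184385 bp and that of Dmd to 13889717 bp, and with all GENCODE transcripts that of Dtna was 152349 bp. The depth limits what can be said of the 6 members without a peak, since sites under 8 fragments are not in the list. Where the local background is higher than the most frequent one, more fragments are needed.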
